A study of Mus musculus with 36 samples.

Results

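The genes described here were 8 textbook targets of glucocorticoid hormones and 2 metallothionein genes, measured in the tibiae of progeria mice and wild-type mice. They are Ddit4, Fkbp5, Tsc22d3, Zbtb16, Sgk1, Klf9, Mt1, Mt2, Pdk4 and Errfi1. They were taken by symbol, and all 10 were found among the 56246 genes of the table. Each had a mean of at least 0.5 scaled TPM (defined below), so all 10 were among the 15931 genes tested.

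Bulk RNA from tibiae without epiphyses and marrow, which leaves mostly cortical bone, was sequenced in 3 groups of 12 C57BL/6J mice, with 6 females and 6 males in each group. WT mice were wild-type, untreated and 6 months old. Saline mice had the genotype LMNAG608G/G608G, that is 2 copies of a human LMNA transgene with the progeria variant G608G, were given saline on day 14 after birth and were 6 months old. ABE mice had the same genotype and age and were given an adenine base editor on day 14, in a pair of AAV9 vectors injected behind the eye. The editor rewrites the mutant base of the transgene in the cells it reaches. The transgene is a large human genomic insert that carries a neighbouring human gene as well, so Saline and WT mice differed by the whole insert and by the injection. WT mice were numbered in a series of their own, and a batch tied to that series cannot be told apart from genotype.

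Between 48064068 and 116206662 reads per library lay on genes. The deposited TPM (reads per gene length, as a share of the library) were dominated by very short genes, which held 84.7% to 96.6% of each library's total. Levels are therefore given as scaled TPM: each gene was set against its geometric mean over the 36 libraries, and a library was divided by the median of these ratios. The scaling factor was lowest, at 0.217, in ABE replicate 1, a female. Groups were compared with limma on log2(scaled TPM + 0.5), with sex in the model and p-values adjusted by Benjamini-Hochberg over all genes tested. A gene was called at an adjusted p under 0.05. The p-values measure the spread between mice, and the added 0.5 makes fold changes of low genes too small. Differences between genes in level are not read from these values, because the table's length for Mt1 was 1246 bp and its principal transcript has 549 bp.

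Glucocorticoids (corticosterone in mice) are adrenal steroids that enter cells and bind the glucocorticoid receptor, which moves to the nucleus and switches target genes on or off. In bone, lasting glucocorticoid excess is known for loss of osteoblasts and osteocytes. Metallothioneins are small cysteine-rich proteins that bind zinc and copper, and their genes respond both to metals, through the factor MTF-1, and to glucocorticoids.

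Promoter sequences are shown for 3 genes because their windows hold the motifs through which these signals are known to act. RefSeq windows on GRCm38.p6, of 250 bases before and 50 after a gene's start, were found for 9 of the 10 genes (17 windows). A glucocorticoid response element was searched as GNACA and TGTNC with 3 bases between them, which reads the same on both strands. It was found in 2 of the 17 windows, 1 of Mt1 and 1 of Sgk1, and in 0.475% of all 32851 windows. The core of the metal response element was searched as TGCACNC or TGCGCNC on both strands, and 25.7% of all windows held at least 1. The window of Mt2 held 4 and that of Mt1 held 3, and 1.97% of all windows held 3 or more. Windows of Ddit4 and Sgk1 held 1 each. A match is a description of the letters and not of binding. In the sequences below, capitals mark the matches. The sequences lie on the plus strand of chromosome 8 (Mt1, chr8:94178839-94179081, 243 bases; Mt2, chr8:94172368-94172617, 250 bases) and of chromosome 10 (Sgk1, chr10:21993669-21993748, 80 bases, before 1 of its 6 listed starts).
Mt1: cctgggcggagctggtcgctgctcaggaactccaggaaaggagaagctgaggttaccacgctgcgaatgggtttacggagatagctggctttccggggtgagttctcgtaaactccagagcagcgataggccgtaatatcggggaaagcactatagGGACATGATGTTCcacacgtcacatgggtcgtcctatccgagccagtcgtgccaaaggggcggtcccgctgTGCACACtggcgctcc
Mt2: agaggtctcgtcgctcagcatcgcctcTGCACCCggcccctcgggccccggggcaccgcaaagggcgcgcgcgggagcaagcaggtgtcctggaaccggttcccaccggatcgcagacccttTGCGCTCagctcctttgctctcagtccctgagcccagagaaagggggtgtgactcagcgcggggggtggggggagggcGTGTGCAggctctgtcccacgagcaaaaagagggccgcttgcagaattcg
Sgk1: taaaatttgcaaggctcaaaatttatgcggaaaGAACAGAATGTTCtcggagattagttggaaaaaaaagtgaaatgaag
In Mt1 the first run of capitals is the glucocorticoid response element and the second a metal response element core, the 3 runs in Mt2 are metal response element cores, and the run in Sgk1 is the glucocorticoid response element. The remaining cores of Mt1 and Mt2 lie after the last base printed.

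All 10 genes rose in Saline mice against WT, and all 10 rose in ABE mice against WT. Of all genes tested, 27.7% rose in Saline mice and 35% rose in ABE mice. In females alone 8 of the 10 genes rose in Saline mice and 9 in ABE mice against WT. Of all 15931 genes tested, 1663 and 4608 did so in females alone. The median log2 fold change of the 10 genes was 0.94 in Saline mice, against 0.02 over all genes tested, and 1.22 in ABE mice, against -0.02. The 10 genes were chosen with earlier results of these data known, so these counts and medians describe them and do not test them as a set. Of the 10 genes, 6 were called in ABE against Saline. The metallothionein genes Mt1 and Mt2 fell, as did 25.1% of all genes tested. Tsc22d3, Zbtb16, Sgk1 and Klf9 rose, as did 23.1% of all genes tested, and Ddit4, Fkbp5, Pdk4 and Errfi1 were not called. The 2 that fell are near the share of all genes. None of the 4 rises was called with a covariate for muscle markers (described below) or for neutrophil markers. The levels of Mt1 and Mt2 in Saline mice did not overlap those of WT mice, a pattern that 3.06% of all genes showed as a rise. In ABE mice 6 of the 10 genes (Ddit4, Fkbp5, Tsc22d3, Zbtb16, Mt1 and Mt2) did not overlap WT, against 4.15% of all genes.

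**Figure D1:**
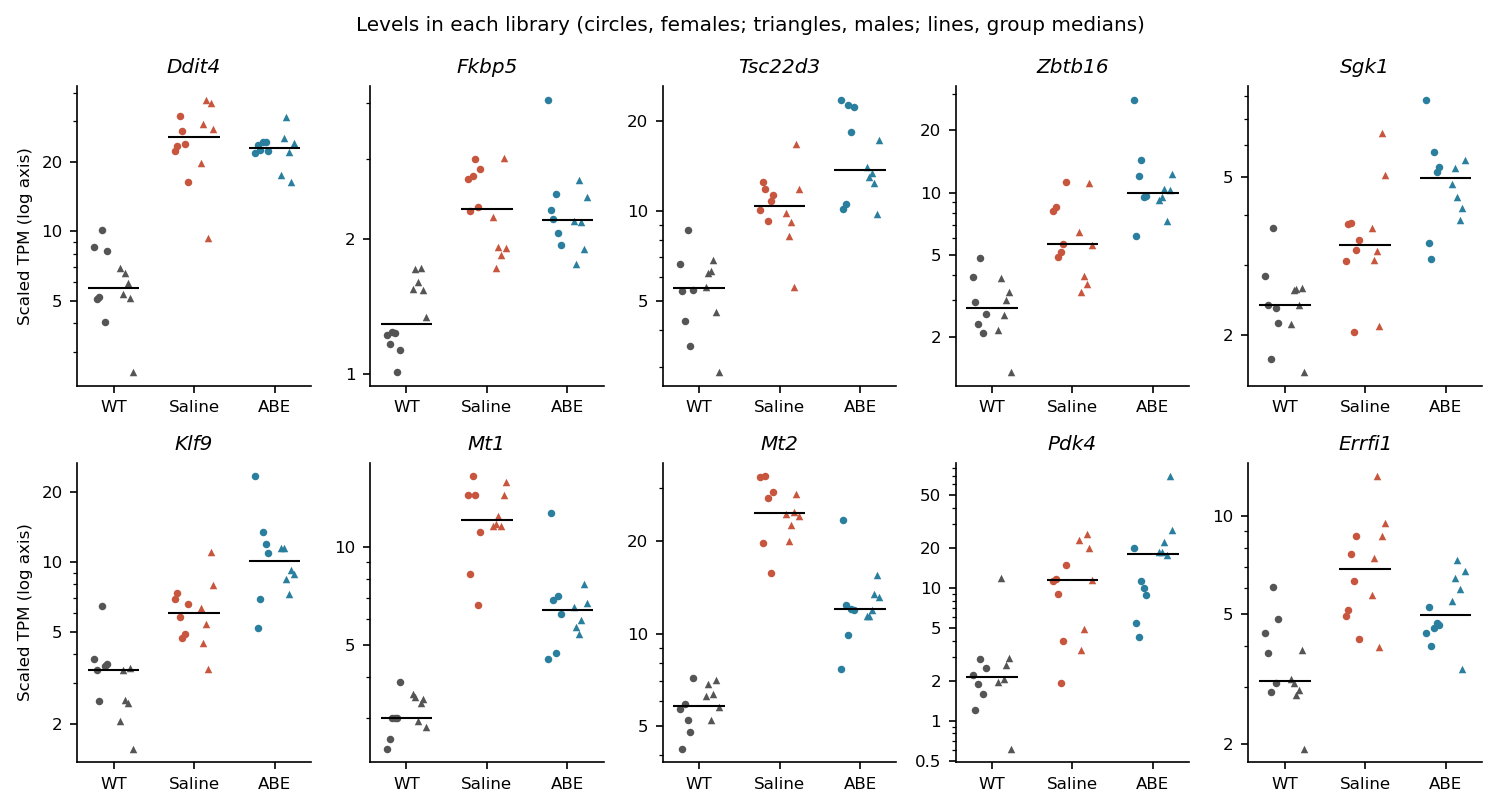
Scaled TPM of each gene (log axis) in the 12 libraries of each group, with circles for females, triangles for males and a line at the group median. Mt1 and Mt2 were highest in Saline mice and intermediate in ABE mice (medians of Mt2 were 5.82 in WT, 24.8 in Saline and 12 in ABE), whereas Zbtb16 and Klf9 were highest in ABE mice.

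Mt1 (ENSMUSG00000031765.8, chr8:94179082-94180327, plus strand) ranged from 2.41 to 3.87 scaled TPM in WT mice, with a median of 3.0. It ranged from 6.65 to 16.5 in Saline mice (median 12.1) and from 4.54 to 12.7 in ABE mice (median 6.39). Every Saline and every ABE library thus lay above every WT library, and 7 of 12 ABE libraries lay below all Saline libraries. The log2 fold change was 1.81 (SE 0.13, adjusted p = 7.2e-13) in Saline against WT, a ratio of medians of 4.04. It was 0.96 (SE 0.13, adjusted p = 9.1e-08) in ABE against WT. ABE against Saline was at -0.85 (SE 0.13, adjusted p = 8.2e-05).

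Mt2 (ENSMUSG00000031762.7, chr8:94172664-94173568, plus strand), the neighbour of Mt1, ranged from 4.2 to 7.18 scaled TPM in WT mice (median 5.82). It ranged from 15.7 to 32.7 in Saline mice (median 24.8) and from 7.66 to 23.5 in ABE mice (median 12). Here 11 of 12 ABE libraries lay below all Saline libraries. The exception was ABE replicate 2, a female, at 23.5, and the next highest ABE library was at 15.6. On the log2 scale the difference was 2.0 (SE 0.12, adjusted p = 5.9e-14) in Saline against WT and 1.04 (SE 0.12, adjusted p = 1.5e-08) in ABE against WT. It was -0.96 (SE 0.12, adjusted p = 2.7e-05) in ABE against Saline. By p-value Mt2 stood 6th and Mt1 20th of the 15931 genes in Saline against WT, and 3rd and 18th in ABE against Saline. In males alone neither Mt1 nor Mt2 overlapped between ABE and Saline mice, and 2.64% of all genes fell in ABE males in that way. In females both genes overlapped. There 3 of 6 ABE libraries lay below all Saline libraries for Mt1, and 5 of 6 for Mt2. A gene on the opposite strand covers Mt2, and the strand setting used in counting is not given in the sources used here.

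Fkbp5 (ENSMUSG00000024222.17, chr17:28399094-28517527, minus strand) encodes a co-chaperone that lowers the receptor's affinity for hormone and so feeds back on it. It ranged from 1.01 to 1.72 scaled TPM in WT mice (median 1.29), from 1.72 to 3.02 in Saline mice (median 2.32) and from 1.76 to 4.08 in ABE mice (median 2.20). All ABE libraries and 11 of 12 Saline libraries lay above every WT library. The log2 fold change was 0.62 (SE 0.10, adjusted p = 2.5e-06) in Saline against WT and 0.60 (SE 0.10, adjusted p = 1.7e-06) in ABE against WT. The difference between ABE and Saline was -0.02 (95% interval -0.21 to 0.17, adjusted p = 0.88).

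Tsc22d3 (ENSMUSG00000031431.13, chrX:140539528-140600659, minus strand) encodes GILZ, a leucine zipper protein that mediates anti-inflammatory effects of glucocorticoids. It ranged from 2.89 to 8.68 scaled TPM in WT mice (median 5.52), from 5.58 to 16.8 in Saline mice (median 10.4) and from 9.81 to 23.7 in ABE mice (median 13.8). ABE mice did not overlap WT, and 10 of 12 Saline libraries lay above every WT library. On the log2 scale the difference was 0.89 (SE 0.16, adjusted p = 2.6e-05) in Saline against WT, 1.40 (SE 0.16, adjusted p = 7.3e-09) in ABE against WT and 0.52 (SE 0.16, adjusted p = 0.0093) in ABE against Saline.

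Zbtb16 (ENSMUSG00000066687.5, chr9:48654297-48836222, minus strand) encodes the zinc finger repressor PLZF. It ranged from 1.35 to 4.81 scaled TPM in WT mice (median 2.76), from 3.29 to 11.3 in Saline mice (median 5.62) and from 6.13 to 28.2 in ABE mice (median 9.94). The groups thus stood in the order WT, Saline, ABE. ABE and WT did not overlap, and 7 of 12 Saline libraries lay below every ABE library. The log2 fold change was 0.99 (SE 0.19, adjusted p = 8.5e-05) in Saline against WT, 1.77 (SE 0.19, adjusted p = 3.6e-09) in ABE against WT and 0.79 (SE 0.19, adjusted p = 0.0023) in ABE against Saline.

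Sgk1 (ENSMUSG00000019970.15, chr10:21882184-21999903, plus strand) encodes a kinase that raises sodium transport and acts beside AKT. It ranged from 1.61 to 3.71 scaled TPM in WT mice (median 2.37), from 2.02 to 6.47 in Saline mice (median 3.36) and from 3.10 to 7.83 in ABE mice (median 4.96). The 3 groups overlapped, with 5 of 12 Saline and 10 of 12 ABE libraries above every WT library. Its log2 fold change of 0.46 (SE 0.14, adjusted p = 0.0057) in Saline against WT was the smallest of the 10 genes. It was 0.87 (SE 0.14, adjusted p = 1.3e-06) in ABE against WT and 0.42 (SE 0.14, adjusted p = 0.013) in ABE against Saline.

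Klf9 (ENSMUSG00000033863.2, chr19:23141226-23168134, plus strand) encodes a Krüppel-like repressor that is directly induced by the receptor. It ranged from 1.56 to 6.44 scaled TPM in WT mice (median 3.40), from 3.45 to 11 in Saline mice (median 6.04) and from 5.18 to 23.5 in ABE mice (median 10.1). All but 1 ABE library (11 of 12) and 5 of 12 Saline libraries lay above every WT library. On the log2 scale the difference was 0.86 (SE 0.18, adjusted p = 0.00021) in Saline against WT, 1.56 (SE 0.18, adjusted p = 1.1e-08) in ABE against WT and 0.70 (SE 0.18, adjusted p = 0.0030) in ABE against Saline.

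Ddit4 (ENSMUSG00000020108.4, chr10:59949669-59951834, minus strand) encodes REDD1, an inhibitor of mTORC1 that is also induced by hypoxia and energy stress. It ranged from 2.45 to 10.2 scaled TPM in WT mice (median 5.66), from 9.32 to 37.3 in Saline mice (median 25.6) and from 16.3 to 31.3 in ABE mice (median 23.1). ABE mice did not overlap WT, and 11 of 12 Saline libraries lay above every WT library. The log2 fold change was 1.95 (SE 0.18, adjusted p = 1.6e-10) in Saline against WT and 1.88 (SE 0.18, adjusted p = 2.4e-10) in ABE against WT. The difference between ABE and Saline was -0.08 (95% interval -0.44 to 0.29, adjusted p = 0.75).

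Pdk4 (ENSMUSG00000019577.6, chr6:5483351-5496309, minus strand) encodes a kinase that shuts pyruvate dehydrogenase and turns muscle from glucose to fat. It had the largest standard error of the 10 genes and was at 0.614 to 11.9 scaled TPM in WT mice (median 2.14), 1.92 to 25.4 in Saline mice (median 11.4) and 4.23 to 69.3 in ABE mice (median 18.1). WT replicate 2, a male at 11.9, lay far above the next WT library, at 2.96, and the groups overlapped. On the log2 scale the difference was 1.80 (SE 0.37, adjusted p = 0.00012) in Saline against WT and 2.47 (SE 0.37, adjusted p = 5.5e-07) in ABE against WT. The difference between ABE and Saline was 0.67 (95% interval -0.07 to 1.42, adjusted p = 0.13).

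Errfi1 (ENSMUSG00000028967.10, chr4:150853919-150868892, plus strand) encodes MIG6, a feedback inhibitor of the EGF receptor. It ranged from 1.93 to 6.05 scaled TPM in WT mice (median 3.12), from 3.97 to 13.3 in Saline mice (median 6.87) and from 3.40 to 7.35 in ABE mice (median 4.98). The groups overlapped, and 6 of 12 Saline libraries lay above every ABE library. The log2 fold change was 0.88 (SE 0.16, adjusted p = 3.2e-05) in Saline against WT and 0.51 (SE 0.16, adjusted p = 0.0050) in ABE against WT. The difference between ABE and Saline, -0.36 (95% interval -0.69 to -0.04), missed the threshold (adjusted p = 0.062).

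Levels of other cell types moved with these results. In bulk bone, fewer cells of a type and less RNA per cell cannot be told apart. The summed level of 20 skeletal muscle markers was 269 to 3984 scaled TPM in WT, 449 to 10284 in Saline and 1478 to 17426 in ABE mice. Of these markers, 15 rose in Saline mice against WT, 20 rose in ABE mice against WT and 18 rose in ABE mice against Saline. Acta1, skeletal actin, was the most abundant. The summed level of 8 osteoclast markers, led by the protease gene Ctsk, was 117 to 241 in WT, 141 to 608 in Saline and 119 to 486 in ABE mice. Of the 7 that were tested, 7 rose in Saline mice against WT, 5 rose in ABE mice against WT and 6 fell in ABE mice against Saline. No marker of either list was at 0 in all libraries. Osteocyte markers summed to 11.9 to 52.6 in WT, 177 to 505 in Saline and 182 to 359 in ABE mice, and all 8 tested rose in both groups against WT. Sost was the most abundant over all libraries, but Dmp1 had a higher mean in WT mice and Mepe in Saline mice. Between ABE and Saline mice 8 of 10 neutrophil markers, 7 of 8 macrophage markers and 5 of 7 erythroid markers fell as well, and so did 5 of 6 adipocyte markers (summed medians of 61.8 in Saline and 34.9 in ABE mice). Against WT, all 6 cartilage markers tested fell in Saline mice. Summed cartilage levels were 82.7 to 231 in WT, 8.31 to 38.0 in Saline and 21.4 to 107 in ABE mice. Prg4 led them in WT mice, at a mean of 83.2, but was at 0.61 in Saline and 2.38 in ABE mice, where Col2a1 was higher. Of the B cell markers, 7 of 9 fell in Saline mice against WT (summed medians of 44.7 in WT and 22.4 in Saline mice). Summed neutrophil markers, led by S100a9, were at 767 to 2501 in WT, 1031 to 3706 in Saline and 350 to 3976 in ABE mice. The part of these cell types in the results was not tested beyond the fits given here.

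With the mean log2 level of the muscle markers as a covariate, 9 of the 10 genes rose in Saline mice against WT (24.5% of all genes did) and 8 rose in ABE mice against WT (16.8% did). Sgk1 was lost in both, at log2 fold changes of 0.17 (SE 0.10, adjusted p = 0.16) and 0.24 (SE 0.13, adjusted p = 0.15), and Errfi1 was lost in ABE against WT, at 0.34 (SE 0.23, adjusted p = 0.26). In ABE against WT, Pdk4 was at 1.05 (SE 0.41, adjusted p = 0.049) in place of 2.47. Between ABE and Saline mice none of the 10 genes rose (2.63% of all genes did), and Mt1 and Mt2 still fell (1.1% did). The values of the 4 genes that had risen were 0.23 (SE 0.16, adjusted p = 0.37) for Tsc22d3, 0.37 (SE 0.17, adjusted p = 0.19) for Zbtb16, 0.07 (SE 0.10, adjusted p = 0.71) for Sgk1 and 0.20 (SE 0.11, adjusted p = 0.29) for Klf9. Mt1 was at -0.74 (SE 0.14, adjusted p = 0.0037) and Mt2 at -0.83 (SE 0.14, adjusted p = 0.00080). Muscle level and group move together, so this fit cannot tell their parts in the difference apart.

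**Figure D2:**
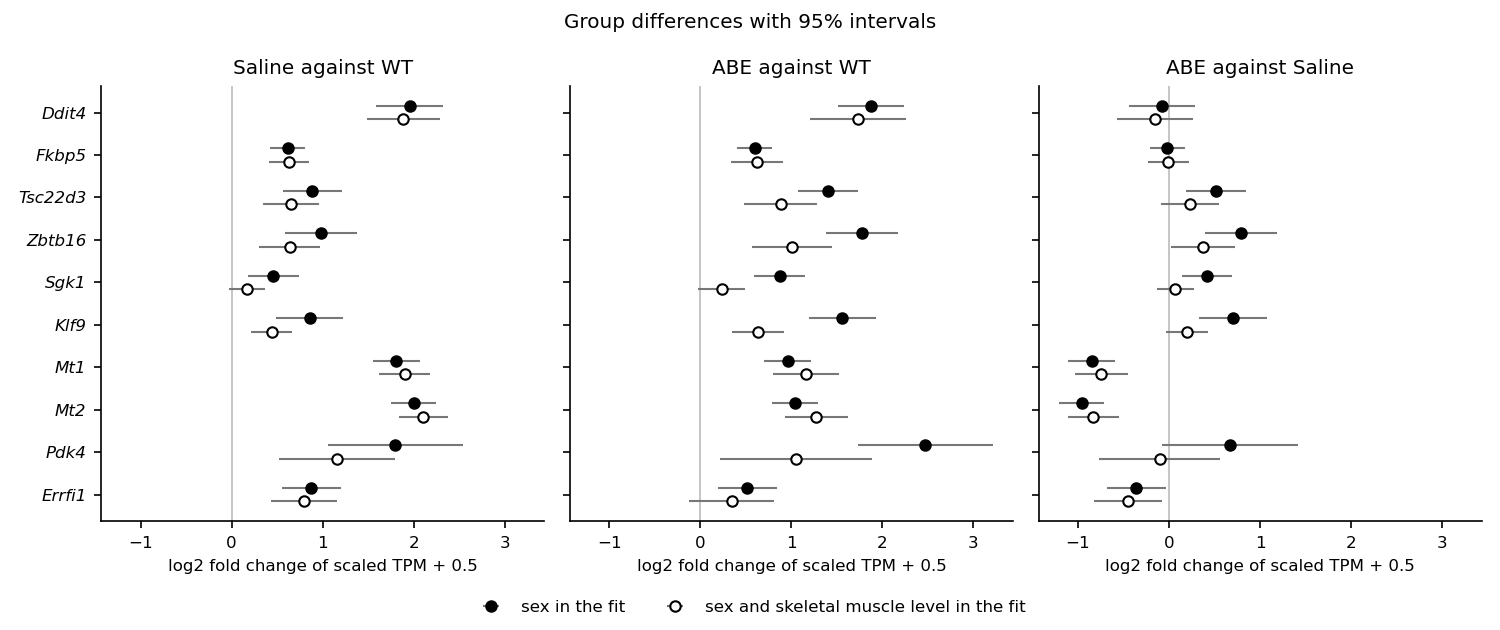
Log2 fold change of scaled TPM + 0.5 with its 95% interval for each gene in the 3 comparisons, with sex in the fit (filled) and with sex and skeletal muscle level (open). In ABE against Saline, adding muscle level moved Klf9 from 0.70 to 0.20 and Pdk4 from 0.67 to -0.10, and moved Mt2 from -0.96 to -0.83.

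A covariate for the osteoclast markers was added after the data were seen. Between ABE and Saline mice Mt1 was at -0.57 (SE 0.10, adjusted p = 0.0025) and Mt2 at -0.77 (SE 0.12, adjusted p = 0.0011), and both still fell, as did 15.2% of all genes. Zbtb16 at 0.53 (SE 0.20, adjusted p = 0.049) and Klf9 at 0.56 (SE 0.20, adjusted p = 0.039) kept their rise in that fit, and Tsc22d3 (adjusted p = 0.093) and Sgk1 (adjusted p = 0.078) were not called. With muscle and osteoclast covariates together both fell, at -0.53 (SE 0.11, adjusted p = 0.015) for Mt1 and -0.70 (SE 0.13, adjusted p = 0.0078) for Mt2, when 0.483% of all genes did. In Saline against WT, Mt1 was at 1.33 (SE 0.14, adjusted p = 1.4e-07) and Mt2 at 1.75 (SE 0.17, adjusted p = 4.4e-08) with the same pair of covariates. Osteoclast level and group also move together, so these fits cannot tell their parts in the differences apart. Osteocyte markers were not used as a covariate.

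Over the 36 libraries, with group and sex removed, Klf9 followed the muscle marker mean most closely of the 10 genes (Pearson's r = 0.85, Spearman's rho = 0.92, adjusted permutation p = 6.7e-05, r = 0.85 without the 2 libraries farthest from the median). Sgk1 (r = 0.80), Zbtb16 (r = 0.77), Pdk4 (r = 0.69) and Tsc22d3 (r = 0.64) also followed it. For Ddit4 (r = 0.07), Errfi1 (r = -0.00068), Fkbp5 (r = 0.27), Mt1 (r = -0.30) and Mt2 (r = -0.28) the test was not passed. Mt1 followed the osteoclast mean instead (r = 0.74, rho = 0.75, adjusted permutation p = 0.00083, r = 0.68 without the 2 farthest), and so did Mt2 (r = 0.60, rho = 0.45, adjusted permutation p = 0.020, r = 0.55 without the 2 farthest). None of the other 8 genes passed with the osteoclast mean. These 20 relations were adjusted together.

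**Figure D3:**
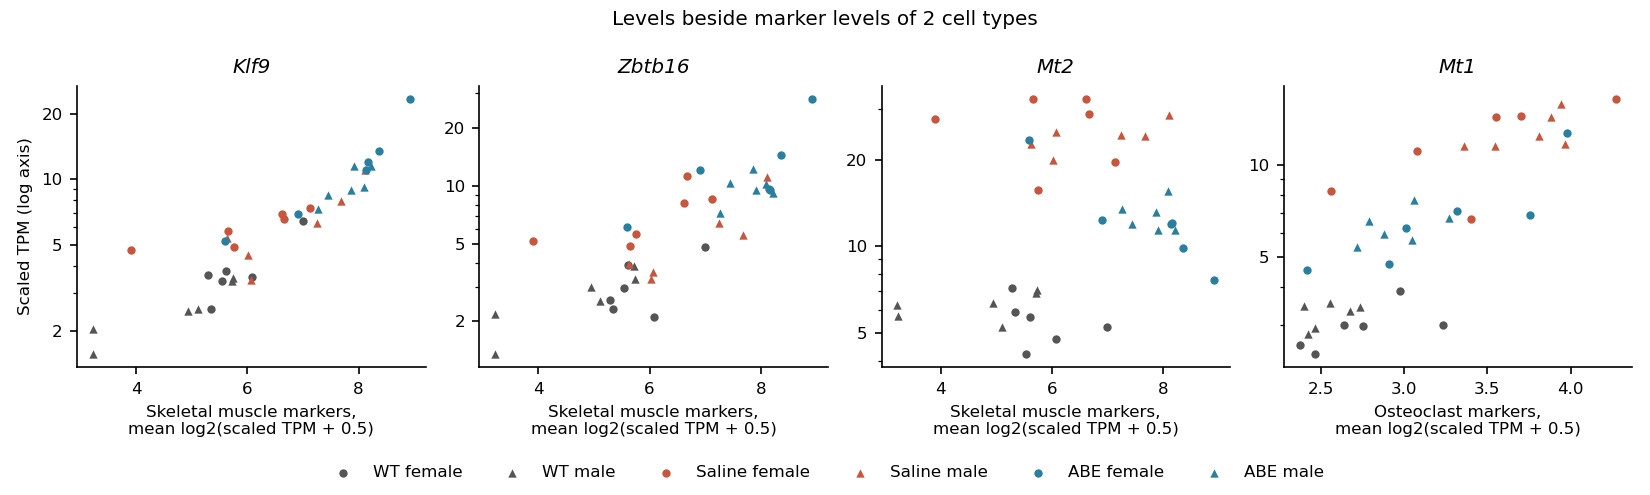
Scaled TPM (log axis) of Klf9, Zbtb16 and Mt2 against the mean log2 level of skeletal muscle markers, and of Mt1 against that of osteoclast markers, in 36 libraries. Klf9 rose along the muscle axis across the 3 groups. Mt2 was at 15.7 to 32.7 in Saline mice and at 4.2 to 7.18 in WT mice, and the muscle levels of these groups overlapped only in part.

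Libraries at the ends of the muscle range followed these relations in part. ABE replicate 1 had the highest muscle mean of the 36 libraries, at 8.92 on the log2 scale, and the lowest osteoclast mean of the ABE group, at 2.42. It had the highest Fkbp5 (4.08), Tsc22d3 (23.7), Zbtb16 (28.2), Sgk1 (7.83) and Klf9 (23.5) of all libraries, and the lowest Mt1 (4.54) and Mt2 (7.66) of the ABE group. These levels and its muscle mean share the lowest scaling factor, 0.217. In deposited TPM its Fkbp5 was at 0.885 and its Sgk1 at 1.70, so the ranks as highest depend on the scaling. ABE replicate 2 had the lowest muscle mean of the ABE group, at 5.60, and its highest osteoclast mean, at 3.98. It had the lowest Zbtb16 (6.13) and Klf9 (5.18) of that group and the highest Mt1 (12.7) and Mt2 (23.5). Saline replicate 11, a male, had the highest muscle mean of the Saline group, at 8.11, and the highest Fkbp5 (3.02), Tsc22d3 (16.8), Sgk1 (6.47) and Klf9 (11) of that group, but its Mt1 (14.4) and Mt2 (28.6) lay above the group medians. Saline replicate 4, a female, had the lowest muscle mean of that group, at 3.90, and its lowest Sgk1 (2.02) and Pdk4 (1.92). Its Zbtb16 (5.17) and Klf9 (4.70) were not the lowest, and its Fkbp5 (3.0) was the second highest. Without ABE replicate 1, all 6 calls between ABE and Saline mice were kept, with Mt2 at -0.90 (SE 0.12, adjusted p = 4.4e-05) and Sgk1 at 0.35 (SE 0.13, adjusted p = 0.032).

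All 6 calls between ABE and Saline mice were made under quantile normalization, under rescaling to genes of at least 300 bp and by limma-voom on the recovered reads, but not in TPM that were not rescaled. In the deposited TPM the median log2 fold change of all genes was -0.13 in Saline against WT, -0.42 in ABE against WT and -0.27 in ABE against Saline. None of the 10 genes then rose in ABE against Saline (3.39% of all genes did), and Mt1, Mt2, Fkbp5 and Errfi1 fell (40.7% did). Fkbp5 was at -0.33 (SE 0.12, adjusted p = 0.028) and Errfi1 at -0.69 (SE 0.20, adjusted p = 0.0096) there. Mt1 and Mt2 fell under each of these scalings.

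None of the 10 genes differed between males and females over all groups (0.496% of all genes did). Pdk4 came nearest, at a log2 difference of 0.81 in males against females (SE 0.30, unadjusted p = 0.011, adjusted p = 0.28). In ABE mice Pdk4 was at 4.23 to 19.8 scaled TPM in females (median 9.41) and at 17.5 to 69.3 in males (median 20.4). A group difference that depended on sex was not called for any of the 10 genes, in Saline against WT (1.03% of all genes), in ABE against WT (3.68%) or in ABE against Saline (0.0565%). Fkbp5 stood at the threshold in Saline against WT, where the log2 fold change was smaller in males by 0.61 (interaction -0.61, SE 0.16, unadjusted p = 0.00061, adjusted p = 0.051). WT females had Fkbp5 between 1.01 and 1.24 and WT males between 1.34 and 1.72, whereas Saline females were at 2.30 to 3.0 and Saline males at 1.72 to 3.02. The interaction passed without ABE replicate 1 (adjusted p = 0.035) and with a pseudocount of 0.1 (adjusted p = 0.044), and did not pass with a pseudocount of 1 (adjusted p = 0.056) or in deposited TPM (adjusted p = 0.55). Errfi1 rose by 1.24 in males (SE 0.23, adjusted p = 0.00038) and by 0.51 in females (SE 0.17, adjusted p = 0.045) in Saline against WT, and the difference between the sexes was not called (adjusted p = 0.14). In ABE against WT the ratio of means of Errfi1 was 1.10 in females and 1.99 in males. The interaction there, 0.72 (SE 0.29, unadjusted p = 0.021, adjusted p = 0.16), was not called.

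Between mice of one group, many of the 10 genes varied together. With group and sex removed, 16 of the 45 pairs passed at an adjusted permutation p under 0.05, and all 16 were positive. Sgk1 and Klf9 were closest (r = 0.90, rho = 0.86, adjusted permutation p = 7.5e-05, r = 0.88 without the 2 farthest libraries), followed by Mt1 and Mt2 (r = 0.89, rho = 0.75, r = 0.81 without the 2 farthest, the same p). Tsc22d3 and Sgk1 (r = 0.87), Zbtb16 and Klf9 (r = 0.83) and Ddit4 and Errfi1 (r = 0.83) came next, with r between 0.75 and 0.84 without the 2 farthest libraries. Ddit4 and Errfi1 also passed with Tsc22d3 (r = 0.61, adjusted permutation p = 0.0014, and r = 0.48, adjusted permutation p = 0.016). In this setting Mt1 and Mt2 passed with each other and with none of the other 8 genes, where r lay between -0.31 and 0.15. Fkbp5 and Zbtb16 (r = 0.68, rho = 0.55, adjusted permutation p = 0.0015) fell to r = 0.45 without the 2 farthest. With muscle level removed as well, 16 pairs again passed, of which 11 were among the first 16. The 5 that were lost were Zbtb16 with Sgk1 (r = 0.35, adjusted permutation p = 0.15), Zbtb16 with Tsc22d3 (r = 0.40, adjusted permutation p = 0.055), and Pdk4 with Zbtb16 (r = 0.23), with Sgk1 and with Klf9 (r = -0.15). Mt2 and Pdk4 passed in that setting (r = 0.49, adjusted permutation p = 0.0045). In deposited TPM 25 pairs passed, among them Mt1 and Mt2 with Fkbp5 (r = 0.65 and 0.70) and with Ddit4 (r = 0.54 and 0.51), and Mt1 with Errfi1 (r = 0.51). Deposited TPM keep the library factors that scaling removes, such as 0.217 for ABE replicate 1, and all genes of a library share them. The median r of the 45 pairs was 0.49 in deposited TPM and 0.26 in scaled TPM.

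**Figure D4:**
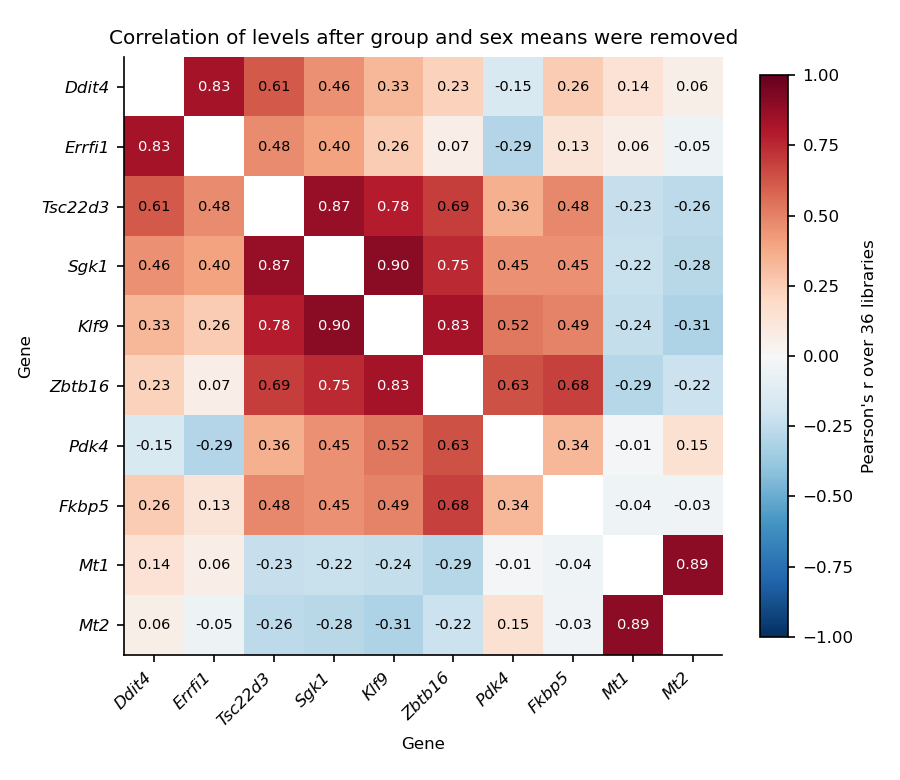
Pearson's r between the 10 genes over 36 libraries after group and sex were removed, from blue (negative) to red (positive). Tsc22d3, Sgk1, Klf9 and Zbtb16 have r of 0.69 to 0.90 with each other (2 of these 6 pairs were not called once muscle level was removed), Ddit4 pairs with Errfi1 (0.83), and Mt1 pairs with Mt2 (0.89).

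Among 3931 genes with a mean of at least 5 scaled TPM, the 5 most like Tsc22d3 were Dusp1 (r = 0.78), Per1 (r = 0.78), Jun (r = 0.76), Tef (r = 0.75) and Mir1192, the last a gene of 121 bp whose reads are uncertain. Dusp1 encodes a MAP kinase phosphatase and Per1 a clock repressor. Those most like Zbtb16 were Dvl1 (r = 0.91), Nctc1, Cuedc1, Trip10 and Clip1 (r = 0.86). Those most like Pdk4 were Tacc2 (r = 0.80), Fabp3, Myh1, Actn2 and Phlda3 (r = 0.76), of which Myh1 encodes a fast muscle myosin and Fabp3 a fatty acid carrier of muscle. Those most like Mt1 were Mmp13 (r = 0.80), Ckb, Spp1, Atp6ap1 and Atp6v0c (r = 0.79). Mmp13 encodes a collagenase, Spp1 osteopontin, and Atp6ap1 and Atp6v0c parts of the proton pump. Those most like Fkbp5 were Pik3r1 (r = 0.67), Mir219b, Wbp1l, Ubr2 and Tsc22d1 (r = 0.59), of which Mir219b, of 65 bp, is uncertain. These are descriptions over 36 libraries that share group and sex terms.

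Counts in the lists below stand against the shares of all genes tested: 27.7% rose and 24.6% fell in Saline against WT, 35% rose and 35.2% fell in ABE against WT, and 23.1% rose and 25.1% fell in ABE against Saline. All of these counts, and the fold changes beside them, come from the fit without muscle level. Of 21 tested genes in a list of other glucocorticoid targets, 15 rose and 1 fell in Saline mice against WT, with a median log2 fold change of 0.41. In ABE mice against WT 14 rose and 2 fell (median 0.37), and between ABE and Saline mice 4 rose and 8 fell (median -0.13). Cdkn1a, a cell cycle inhibitor that is also a p53 target, had the largest rise against WT, at 1.74 (SE 0.12, adjusted p = 8.8e-13) in Saline and 1.96 (SE 0.12, adjusted p = 4.1e-14) in ABE mice. Cd163, a macrophage scavenger receptor, had the largest fall, at -0.65 (SE 0.12) and -0.90 (SE 0.12). Between ABE and Saline mice Klf15 had the largest rise, at 0.66 (SE 0.20, adjusted p = 0.0074). Angptl4, a lipoprotein lipase inhibitor, had the largest fall, at -0.77 (SE 0.19, adjusted p = 0.0023). Dusp1 rose in all 3 comparisons, by 1.05, 1.47 and 0.42 (SE 0.12 each).

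Of 12 tested genes of the receptor and of steroid metabolism, 7 rose in Saline mice against WT, led by the chaperone gene Hsp90ab1 at 0.60 (SE 0.07). In ABE mice against WT 8 rose and 1 fell, and between ABE and Saline mice 4 rose and 2 fell. The receptor gene Nr3c1 was at 3.93 to 4.95 scaled TPM in WT, 4.18 to 5.01 in Saline and 4.63 to 7.29 in ABE mice. Its log2 fold change was 0.12 (SE 0.06, adjusted p = 0.063) in Saline against WT and 0.38 (SE 0.06, adjusted p = 5.5e-07) in ABE against WT. The mineralocorticoid receptor gene Nr3c2 rose by 0.71 (SE 0.10) in ABE mice against WT and by 0.48 (SE 0.10) against Saline. Hsd11b1, whose enzyme regenerates active hormone, fell by 0.24 in ABE mice against WT (SE 0.11, adjusted p = 0.044). Between ABE and Saline mice Nr3c1 was among the genes that rose and Hsd11b1 among those that fell. Hsp90aa1 had the largest fall between ABE and Saline mice, at -0.43 (SE 0.13).

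Of 14 tested genes of metal handling, 7 rose and 3 fell in Saline mice against WT, 8 rose and 4 fell in ABE mice against WT, and 1 rose and 4 fell between ABE and Saline mice (23.1% of all genes rose and 25.1% fell). Mt3, another metallothionein gene, moved as Mt1 and Mt2 did. It was at 1.07 to 2.60 scaled TPM in WT, 2.98 to 9.28 in Saline and 1.26 to 7.29 in ABE mice, so that Saline and WT did not overlap. Mt3 rose by 1.51 (SE 0.19, adjusted p = 8.3e-08) in Saline mice and stood at -0.74 in ABE against Saline (SE 0.19, adjusted p = 0.0030). The zinc and iron importer gene Slc39a14 followed the same course, at 1.40 (SE 0.11, adjusted p = 3.5e-12) in Saline against WT and -0.48 (SE 0.11, adjusted p = 0.0012) in ABE against Saline. Mtf1, which encodes the metal-sensing factor, was at -0.14 (SE 0.04, adjusted p = 0.0025) in Saline against WT. Slc30a1, a zinc exporter gene that MTF-1 is known to induce, was at 0.0065 (SE 0.04, adjusted p = 0.91) in Saline against WT. Slc30a1 was among the genes that fell in ABE mice against WT and between ABE and Saline mice. Slc11a2, an iron importer gene, had the largest fall, at -0.22 (SE 0.06) in Saline and -0.44 (SE 0.06) in ABE mice against WT. Slc39a13 was the 1 gene that rose between ABE and Saline mice, at 0.21 (SE 0.08).

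Lists of related pathways stand against the same shares, 27.7% of all genes higher in Saline and 35% higher in ABE mice against WT, and 23.1% higher between ABE and Saline mice. With muscle level in the fit, 16.8% of all genes rose in ABE mice against WT and 2.63% between ABE and Saline mice. The part of muscle in the list counts was not tested. Of 15 tested clock genes, 7 rose in Saline mice, led by Per1 at 0.99 (SE 0.17), 14 rose in ABE mice against WT and 11 rose between ABE and Saline mice, led by the output factor gene Dbp at 0.64 (SE 0.21), and none fell. The time of day of tissue collection is not given in the sources used here. Of 13 hypoxia genes, 5 rose in Saline mice, led by Ndrg1 at 1.49 (SE 0.11). In ABE mice against WT 11 rose and 2 fell, and between ABE and Saline mice 7 rose, led by Hk2 at 1.10 (SE 0.22), and 2 fell, with Pfkfb3 at -0.44 (SE 0.13). Of 15 FOXO and fasting genes, 6 rose and 1 fell in Saline mice, led by Ucp3 at 1.15 (SE 0.28), and 11 rose and 4 fell in ABE mice against WT, led by the muscle ubiquitin ligase gene Trim63 at 2.02 (SE 0.30). Of 13 genes of mTOR and amino acid stress, 5 rose and 1 fell in Saline mice and 9 rose and 1 fell in ABE mice against WT, led by Chac1 at 0.68 (SE 0.25) and 1.41 (SE 0.25).

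**Figure D5:**
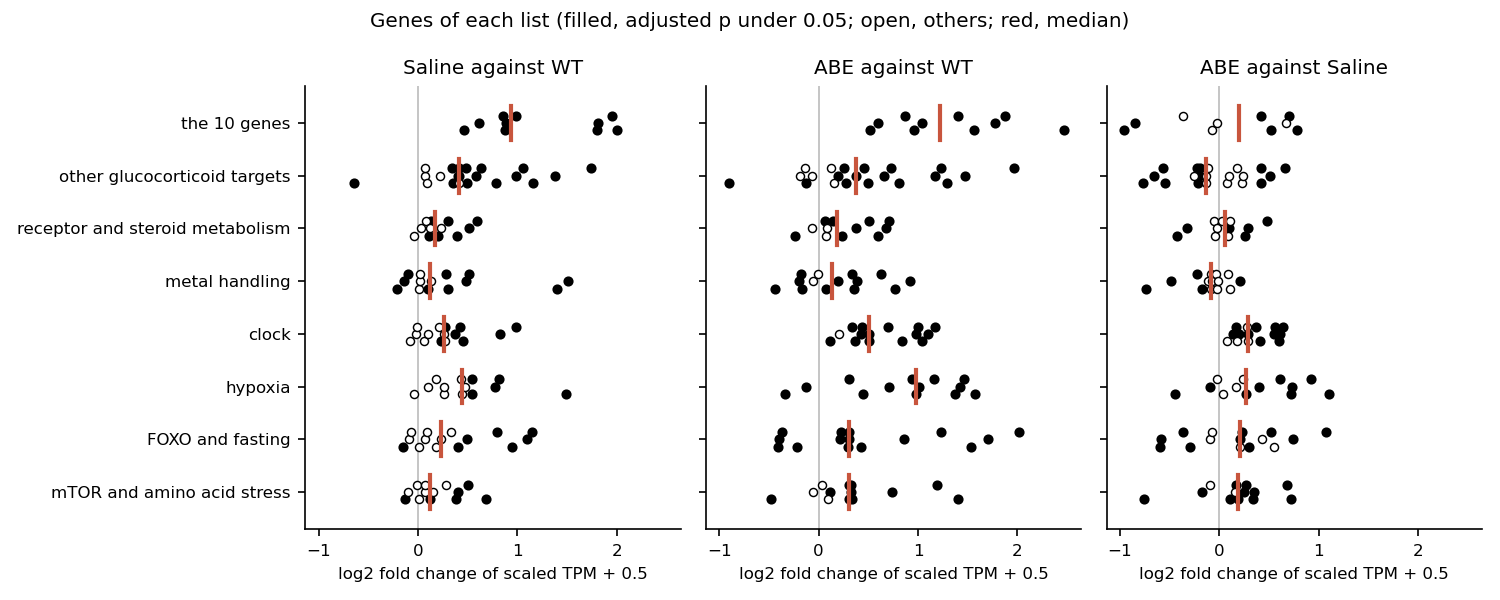
Log2 fold change of scaled TPM + 0.5 for the genes of each list in the 3 comparisons, filled where called, with the list's median in red. The median of the 10 genes was 0.94 in Saline and 1.22 in ABE mice against WT, and that of the other glucocorticoid targets was 0.41 and 0.37. The 10 genes and the lists were chosen with earlier results of these data known, so this difference can follow from the choice.

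Of 15 tested relatives of the 10 genes, 9 rose and 2 fell in Saline mice against WT (27.7% and 24.6% of all genes did), and 10 rose and 4 fell in ABE mice (35% and 35.2% did). Ddit4l, the paralog of Ddit4, rose by 1.54 (SE 0.19) in Saline mice and by 1.79 (SE 0.19) in ABE mice. Pdk2, a paralog of Pdk4, rose by 0.98 (SE 0.31) and 2.07 (SE 0.31), and by 1.10 (SE 0.31) between ABE and Saline mice. Tsc22d4, a paralog of Tsc22d3, had the largest fall, at -0.22 (SE 0.06) and -0.39 (SE 0.06). Of 6 tested genes of the EGF receptor pathway, which the product of Errfi1 restrains, 3 rose and 2 fell in Saline mice, with Spry4 at 0.46 (SE 0.08) and the ligand gene Hbegf at -0.69 (SE 0.13). In ABE mice against WT 4 rose, and between ABE and Saline mice 5 rose, led by Hbegf at 0.49 (SE 0.13).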

How the data were processed

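Tibial RNA of 36 mice was sequenced as strand-specific poly(A) libraries, paired-end, on an Illumina NovaSeq. Reads were aligned to GRCm38 with STAR (2.73a in the submitters' processing notes) and GENCODE genes were quantified with QoRTs. The authors deposited 1 table of TPM for all genes, and how TPM were calculated is not given in the sources used here. Multiplied by gene length less 218 bp and a constant per library, 100% of the deposited TPM were whole reads, which gave the depths. The tolerance was 0.01 reads, and was wider, in proportion to the reads, for genes with many reads. The precision of a level is set by these reads and by the 12 mice per group.

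Each library was divided by its median ratio over 23618 genes above 0 in every library, and genes with a mean of at least 0.5 were tested (15931). Groups came from the labels. All 36 libraries entered 1 limma fit (limma 3.58.1, R 4.3.3) on log2(scaled TPM + 0.5) with group and sex, so the comparisons share groups, and sex differences were tested as interaction terms. Correlations used residuals after group and sex, with 100000 two-sided permutations in NumPy 2.4.6 (the smallest p they can give is 1e-05) and Benjamini-Hochberg adjustment. Ranks for rho came from SciPy 1.17.1. On simulated data with known changes the fit was tested before use. Coordinates are from GENCODE on GRCm38.

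The 10 genes and all lists were chosen with earlier results of these data known. From each list the largest rise and fall among the called genes are named, and for 5 of the genes the 5 most similar genes by r. Dusp1 as a glucocorticoid target, Nr3c1, Mtf1 and Slc30a1 were chosen after their values were seen. Alternatives were other scalings (deposited TPM, quantile normalization, sums over long genes), pseudocounts of 0.1 and 1, filters, covariates, weights, 1 sex or the compared groups alone, limma-voom on the recovered reads and leaving out each library. Covariates for osteoclast or neutrophil markers, and for muscle and osteoclast markers together, were added after seeing the data.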

Additional observations from a re-analysis of the deposited data

How the results depend on the processing

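All 10 genes kept their rise in Saline and in ABE mice against WT when any 1 library was left out. Over the other settings, 161 of 168 values in Saline against WT and 159 of 168 in ABE against WT kept their direction and side of the threshold, and the others kept their direction but were no longer called. Between ABE and Saline mice 138 of 168 did, 23 were no longer called, 3 became called and 4 changed sign. Those were Ddit4 with the osteoclast covariate (0.068), Fkbp5 in males alone (0.057) and Pdk4 with the muscle covariate (-0.10) or muscle and osteoclast covariates (-0.28), none of them called. With 1 library left out, Fkbp5 ranged from -0.085 to 0.0099 and was not called, with 5 of 36 values above 0.

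The number of the 10 genes called between ABE and Saline mice was 6. It was 3 in males alone, 3 with the neutrophil covariate (Mt1, Mt2 and Errfi1, all lower), 2 with the muscle covariate and 2 with muscle and osteoclast covariates, and 6 to 7 with 1 library left out, where Errfi1 was added without ABE replicate 9, Saline replicate 1, 2, 6 or 10, or WT replicate 6. The cause was not tested.

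Of all genes, 8332 were called in Saline against WT. The count was 3278 in females alone, 2059 at a mean of at least 5, 13160 with no filter, 4667 with muscle and osteoclast covariates, 4621 in deposited TPM and 7753 to 8883 with 1 library left out. In ABE against WT 11175 were called, and 2632 at a mean of at least 5, 19127 with no filter, 4475 with muscle and osteoclast covariates, 4920 with the muscle covariate and 10967 to 11399 with 1 library left out. In ABE against Saline 7683 were called, and 4740 in females alone, 3213 in males alone, 1786 at a mean of at least 5, 1341 with the neutrophil covariate, 4568 with the osteoclast covariate, 193 with muscle and osteoclast covariates, 594 with the muscle covariate and 6734 to 8465 with 1 library left out. The filters change how many genes were tested and fits in 1 sex hold fewer mice, and for the others the cause was not tested.

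A sex difference in a group effect, called for 0 of the 10 genes, was called for 1 with a pseudocount of 0.1 and for 1 without ABE replicate 1 (Fkbp5). A sex difference in level, called for 0, was called for 1 with muscle and osteoclast covariates (Pdk4) and for 5 in deposited TPM. The 16 called correlations were 25 in deposited TPM, which kept 15 of them. No paired analysis was possible because the labels give no number, litter or batch that pairs mice across groups. Depth was not the limit for the 10 genes, whose lowest library held 392 reads (Mt2). The limits were the spread between mice, a batch that cannot be told apart from genotype, and osteocyte, cartilage, muscle, osteoclast, fat and blood cell markers that move with the groups.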
